A study of Mus musculus with 6 samples.

Results

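Neutrophils package their proteins in granules that form one kind after another, so the genes of late granules and of the cell surface follow those of early granules during maturation. Mmp8, Mmp9, Cd177, Retnlg, Hp and Pglyrp1, genes tied to gelatinase granules, to related mobile stores and to late neutrophils, were followed in cells from digested, inflamed mouse joints. They were chosen by symbol, and all 6 were found among the 20394 genes of the count table. Male C57BL/6J mice, 8 weeks old when bought, were immunized with 10 µg methylated bovine serum albumin in complete Freund's adjuvant, and 100 µg of the same antigen was injected into the knee on day 21, which gives antigen-induced arthritis. From day 21 the mice received either PBS, the vehicle (n = 2 samples), or 300 µg of PEPITEM, a peptide that limits leukocyte trafficking, into the peritoneum (n = 4 samples). On day 3 after the challenge isolated joints were digested to obtain synovial cells. These were sorted for CD45, the surface protein of leukocytes, and single cell 3′ libraries were sequenced.

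No comparison of PBS with PEPITEM was made. The deposited table pools 32953 cells, and its barcodes end in a library number from 1 to 6 that no source used here ties to a treatment. Each value is thus a total of the 6 libraries, and levels in the neutrophil lineage are followed by the lowest and highest library and the median of the 6, without a test between libraries of unknown treatment. The libraries held 2919 to 9345 cells and 47273569 to 123367661 unique molecular identifiers (UMIs, each a single captured RNA molecule). Ptprc, which encodes CD45, had a UMI in 95.8% of all cells and in 98.8% of the neutrophil lineage, but in only 22.98% of 161 fibroblast-like cells. Between libraries, 138 barcode sequences occurred more than once.

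Azurophil granules form in promyelocytes, secondary granules in myelocytes, and gelatinase granules in later cells that no longer divide. Mmp8 encodes neutrophil collagenase and Mmp9 gelatinase B, which cleave collagens and denatured collagen. Cd177 encodes a surface protein linked to the integrin Mac-1, Retnlg encodes resistin-like gamma, Hp encodes haptoglobin, which binds free hemoglobin, and Pglyrp1 encodes a peptidoglycan recognition protein that kills bacteria.

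In the annotation of the build mm10 (GRCm38, GENCODE vM21) the 6 genes lie apart on 5 chromosomes. Mmp8 spans chr9:7558456-7568485 on the plus strand with 10 exons, and Mmp9 spans chr2:164940780-164955850 on the plus strand with up to 13 exons. Cd177 spans chr7:24743983-24760311 on the minus strand with up to 17 exons, and Pglyrp1 spans chr7:18871331-18890459 on the plus strand with up to 4 exons. Retnlg spans chr16:48872621-48874496 on the plus strand with 4 exons, and Hp spans chr8:109575128-109579172 on the minus strand with 5 exons. The annotation holds 0 other genes on the same bases, on either strand.

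RefSeq gave the upstream sequence of 4 of the 6 genes (GRCm38.p6). Its start sites of Mmp8 and Retnlg differ from the gene starts given above, and distances are counted from the RefSeq starts. The 250 bases before the start sites of Cd177, Mmp8 and Retnlg are shown because these 3 genes reached their highest level in 3 successive clusters. Capitals mark matches on either strand to TTGCNNAA, a C/EBP-type motif, to GAGGAA, a PU.1-type motif, and to TATAAA, the TATA box. These motifs were chosen with the sequences in view.
Cd177 (chr7:24760312-24760561, minus strand): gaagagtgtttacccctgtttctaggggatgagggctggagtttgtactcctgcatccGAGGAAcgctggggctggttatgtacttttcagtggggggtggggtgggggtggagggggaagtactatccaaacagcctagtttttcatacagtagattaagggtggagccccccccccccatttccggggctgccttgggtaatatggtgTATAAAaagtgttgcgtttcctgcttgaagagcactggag
Mmp8 (chr9:7558179-7558428, plus strand): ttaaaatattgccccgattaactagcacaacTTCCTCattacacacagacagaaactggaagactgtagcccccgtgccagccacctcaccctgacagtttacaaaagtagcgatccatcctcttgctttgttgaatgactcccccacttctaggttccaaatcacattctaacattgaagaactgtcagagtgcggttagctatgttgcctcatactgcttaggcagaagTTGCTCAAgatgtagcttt
Retnlg (chr16:48872358-48872607, plus strand): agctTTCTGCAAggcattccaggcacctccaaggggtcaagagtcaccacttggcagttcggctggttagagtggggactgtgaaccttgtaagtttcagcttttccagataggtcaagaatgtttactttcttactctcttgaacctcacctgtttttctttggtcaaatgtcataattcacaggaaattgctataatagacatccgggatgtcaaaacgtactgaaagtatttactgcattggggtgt

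The C/EBP-type motif began 19 bases before the start of Mmp8 and 246 bases before that of Retnlg. It was present in 9.56% of 32851 windows of this length. The PU.1-type motif was found 192 bases before the start of Cd177 and 219 bases before that of Mmp8, against 23.3% of all windows. Pglyrp1 held 2 such matches. The TATA box stood 40 bases before the start of Cd177 and was present in 12.4% of all windows. A match describes the letters of the window and does not show that a factor binds there.

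The cells were clustered without the 6 genes, and 6 clusters with 11895 cells in all, 36.1% of the total, made up the neutrophil lineage. They were ordered by class and by falling share of secondary granule transcripts, which is an order of transcript content and not a measured time. A promyelocyte-like cluster (1064 cells) was led by Elane, Mpo and Prtn3, and a cycling myelocyte-like cluster (1208 cells) by Fcnb, Chil3 and Camp. A first immature neutrophil-like cluster (1483 cells) was led by Ltf, Camp and Ngp, and a second one (2914 cells) had Ifitm6, Ltf and Ly6g among its leading genes. A first mature neutrophil-like cluster (3036 cells) was led by Gm5483 and Stfa2l1, and a second one (2190 cells) by Csf1 and Ccrl2, with Il1b among its leading genes. These 4 are called Ltf-led, Ifitm6-led, Stfa2l1-led and Ccrl2-led below. The digested joints also gave B cell-like cells led by Vpreb1 and Igll1. From which tissue of the joint the promyelocyte-like and myelocyte-like cells came was not tested. The median depth per cell fell along this order from 34168 to 3968 UMIs, so levels are given per 1000000 UMIs (CPM) and also as UMIs per cell.

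The lineage held 32.9% of all UMIs, 68.1% of those of Mmp8, 71.0% of Mmp9, 77.2% of Cd177, 72.2% of Retnlg, 64.6% of Hp and 80.4% of Pglyrp1. Together the 6 genes took 0.285% of the UMIs of the promyelocyte-like cluster and 3.63% of those of the Stfa2l1-led cluster. The 6 genes were not all highest in one cluster. Cd177 and Hp had their highest CPM in the Ltf-led cluster, Mmp8 in the Ifitm6-led and Retnlg in the Stfa2l1-led cluster, while Mmp9 and Pglyrp1 were level over 2 neighboring clusters. By CPM, Cd177 and Hp were highest in the same cluster as the secondary granule genes Ltf, Ngp and Lcn2, ahead of Mmp8 and Retnlg. For both, the library ranges there overlapped those of a neighboring cluster, and UMIs per cell were highest in the myelocyte-like cluster. Pglyrp1 was level between the Ltf-led cluster and the next.

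**Figure D1:**
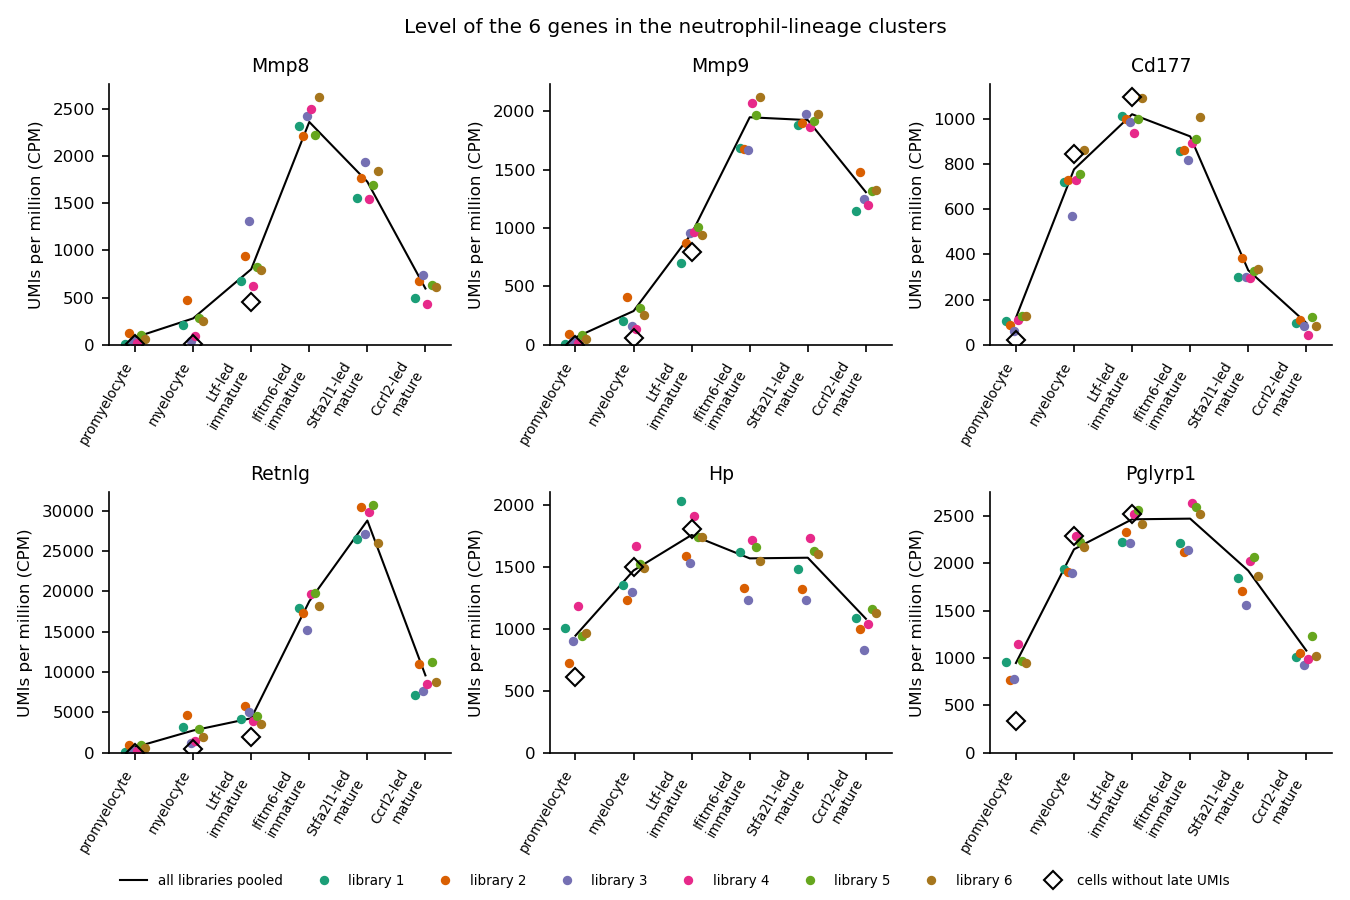
Level of each gene in counts per 1000000 UMIs (CPM, vertical axis from 0) in the 6 neutrophil-lineage clusters (horizontal axis); the line is the pooled value, the colored points are the 6 libraries, and the open diamonds are the cells of the first 3 clusters without a UMI of Cxcr2, Il1b, Il1r2 or Ccrl2. Cd177 reached 1021 CPM in the Ltf-led, Mmp8 2362 CPM in the Ifitm6-led and Retnlg 28786 CPM in the Stfa2l1-led cluster. In promyelocyte-like cells the diamonds of Mmp8, Mmp9, Cd177 and Retnlg were at or below 19.9 CPM, which follows in part from how those cells were picked.

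Mmp8 stood at 78.4 CPM in the promyelocyte-like cluster (6.86 to 129.7, median 51.2), 279.9 CPM in the myelocyte-like (38.7 to 477, median 228) and 801 CPM in the Ltf-led cluster (623 to 1317, median 809). It rose to 2362 CPM in the Ifitm6-led cluster, where the libraries ran from 2211 to 2628 CPM with a median of 2372. All 6 libraries had their highest level there, and the range did not overlap that of the Stfa2l1-led cluster, 1542 to 1933 CPM with a median of 1731. In the Ccrl2-led cluster Mmp8 was down to 597 CPM (431 to 739, median 625).

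Mmp9 followed Mmp8 at first, with 63.3 CPM in the promyelocyte-like cluster (6.24 to 95.3, median 42.2), 289 in the myelocyte-like (135 to 413, median 229) and 953 in the Ltf-led cluster (704 to 1012, median 949). It then held its level, with 1948 CPM in the Ifitm6-led cluster (1669 to 2122 in the libraries, median 1824) and 1924 CPM in the Stfa2l1-led cluster (1861 to 1974, median 1908). These neighbors did not differ beyond the spread, since 3 of the 6 libraries were higher in one and 3 in the other. Mmp9 kept 1306 CPM in the Ccrl2-led cluster (1147 to 1479, median 1284), so that the ratio of Mmp9 to Mmp8 went from 0.825 in the Ifitm6-led to 2.19 in the Ccrl2-led cluster.

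Cd177 fell the most of the 6 toward the mature clusters. It rose from 119.7 CPM in the promyelocyte-like (61.3 to 128, median 109) to 777 CPM in the myelocyte-like cluster (569.9 to 863, median 730.4) and reached 1021 CPM in the Ltf-led cluster (935 to 1094, median 999). The Ifitm6-led cluster was lower in all 6 libraries, at 923 CPM, though its range of 818 to 1008 (median 879) overlapped the former. Cd177 then dropped to 330.1 CPM in the Stfa2l1-led cluster (296 to 383, median 312) and 96.9 CPM in the Ccrl2-led cluster (44.8 to 124, median 89.99), with no overlap at either step.

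Retnlg was the most abundant of the 6 as a share of all molecules, and it had the widest span, 41.4-fold between its lowest and highest cluster. It went from 695 CPM in the promyelocyte-like (148 to 982, median 406) to 2763 in the myelocyte-like (1176 to 4702, median 2400.3) and 4281 in the Ltf-led cluster (3597 to 5832, median 4353). The Ifitm6-led cluster had 18775 CPM (15159 to 19838, median 18085) and the Stfa2l1-led cluster 28786 CPM (25973 to 30724, median 28530), and these ranges did not overlap. In the Ccrl2-led cluster the level was 9597 CPM (7116 to 11297, median 8619).

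Hp varied least, 1.86-fold over the 6 clusters. Its level was 947 CPM in the promyelocyte-like (727 to 1187, median 955), 1474 in the myelocyte-like (1238 to 1674, median 1424) and 1761 CPM in the Ltf-led cluster (1534 to 2033, median 1745), and the last was the highest in all 6 libraries. It stood at 1572 CPM in the Ifitm6-led (1233 to 1718, median 1589) and 1577 CPM in the Stfa2l1-led cluster (1231 to 1735, median 1544), which did not differ beyond the spread, and at 1083 CPM in the Ccrl2-led cluster (834 to 1166, median 1065). Library 4 had the highest level in 4 of the 6 clusters, and its treatment is unknown.

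Pglyrp1 was at 947 CPM in the promyelocyte-like (769 to 1144, median 951) and 2145 CPM in the myelocyte-like cluster (1901 to 2283, median 2055), and at 2462 CPM in the Ltf-led cluster (2216 to 2563, median 2370). The Ifitm6-led cluster had 2469 CPM (2121 to 2630, median 2364), and which of the last pair was higher split the libraries 3 to 3. The level then fell to 1920 CPM (1556 to 2067, median 1849) and to 1078 CPM (929 to 1232, median 1015) in the mature clusters, lower in 6 of 6 libraries at each step.

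The steps were set beside all genes with a mean of at least 5 CPM in the clusters compared, counting a gene only when the ranges of the 6 libraries did not overlap. From the promyelocyte-like to the myelocyte-like cluster 5 of the 6 genes were higher and 0 lower, against 8.85% and 39.6% of 8723 genes. The late genes Cxcr2, Il1b, Il1r2 and Ccrl2 together also rose, from 284 CPM (155 to 333) to 766 CPM (441 to 1282). How far the source of their UMIs also brought those of Mmp9 and Retnlg was not tested. Mmp8 was higher in 5 of 6 libraries but its ranges overlapped, 6.86 to 129.7 CPM against 38.7 to 477 CPM. From the myelocyte-like to the Ltf-led cluster Mmp8, Mmp9 and Cd177 were higher and 0 lower, against 6.25% and 30.4% of 7423 genes. From the Ltf-led to the Ifitm6-led cluster Mmp8, Mmp9 and Retnlg were higher and 0 lower, against 13.4% and 9.38% of 6468 genes.

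Between the Ifitm6-led and the Stfa2l1-led cluster only Retnlg was higher, with 14.2% of 6125 genes, and Mmp8, Cd177 and Pglyrp1 were lower, with 14.9%. The last step was uniform. All 6 genes were lower in the Ccrl2-led than in the Stfa2l1-led cluster, where 3.38% of 6205 genes were lower and 19.2% higher. Their median log2 ratio at this step was -1.18, beside 0.30 over all those genes, whereas at the first step it had been 1.91 beside -0.52. The counts rest on clusters built from genes that vary along the same course, and describe those clusters without testing them.

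Mature and immature neutrophil-like cells as a whole gave a mixed picture. Retnlg was higher in mature cells by 0.70 on the log2 scale (0.21 to 0.88 in the libraries), and 26.5% of 6397 genes were higher without overlap. Mmp8 at -0.44, Pglyrp1 at -0.62 and Cd177 at -1.98 were lower, as were 20.3% of the genes. Hp at -0.24 was lower in 6 of 6 libraries but with overlapping ranges. Mmp9 was higher by 0.11, in 6 of 6 libraries and also with overlap, but this direction depended on the processing. The ratio was -0.079 with fewer clusters. It was -0.19 with each cell thinned to 1000 UMIs, which kept the classes apart from the shallow cells left out. Between the terciles of cells with the most and the least secondary granule transcripts it was -0.0079, with a counting interval of -0.031 to 0.015.

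**Figure D2:**
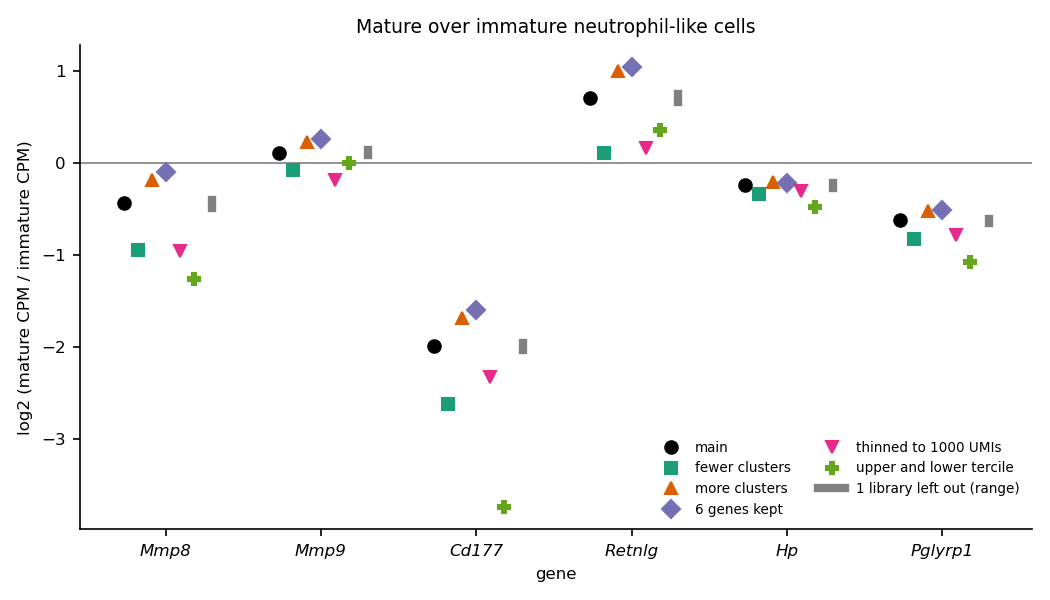
Log2 ratio of the CPM of mature to immature neutrophil-like cells (vertical axis, 0 is no difference) for each gene; symbols are the main value and 5 alternatives, and grey bars show the range when 1 of the 6 libraries was left out. Cd177 lies below 0 and Retnlg above 0 under every setting shown, while Mmp9 lies on both sides of 0, from -0.19 to 0.25.

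Counted as UMIs per cell, the highest cluster of Cd177, Retnlg, Hp and Pglyrp1 lay earlier in the order, where cells had more UMIs. Hp, Pglyrp1 and Cd177 had the most UMIs per cell in the myelocyte-like cluster, with means of 46.3, 67.4 and 24.4. Mmp8 with 28.6, Mmp9 with 23.6 and Retnlg with 227 UMIs per cell were all highest in the Ifitm6-led cluster. Each of these held in all 6 libraries. Retnlg thus had fewer molecules per cell in the Stfa2l1-led cluster, 163, although its share of the molecules was larger there. Between mature and immature cells as a whole, all 6 genes had fewer UMIs per cell, by log2 ratios from -3.28 for Cd177 to -0.59 for Retnlg.

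Nearly every Ifitm6-led cell had a UMI of each gene, from 97.8% of cells for Mmp8 to 99.7% for Retnlg. Mmp8 was detected in 23.6% of promyelocyte-like cells, in 97.8% of Ifitm6-led and in 53.3% of Ccrl2-led cells. After thinning each cell to 1000 UMIs, which left out 123 shallower cells of the whole table, these shares were 4.32%, 85.7% and 26.7%. Cd177 was found in 45.7% of promyelocyte-like, 99.5% of Ltf-led and 16.3% of Ccrl2-led cells, and in 10.9%, 62.9% and 4.49% of them after thinning. Hp had a UMI in 97.7% of promyelocyte-like cells and Pglyrp1 in 70.4%. After thinning these shares were 55.5% and 43.1%, beside 4.32% for Mmp8 and 4.14% for Mmp9 in the same cluster. For comparison, lymphocyte classes were read after thinning, and the source of these UMIs was not tested. B cell-like cells had a UMI of Mmp8 in 0.220%, of Cd177 in 0.0979%, of Hp in 0.734% and of Retnlg in 1.91% of cells. In T cell-like cells these shares were higher, at 1.39%, 0.733%, 2.53% and 2.61% in the same order. NK cell-like cells had 1.47%, 0.294%, 2.06% and 2.35%.

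**Figure D3:**
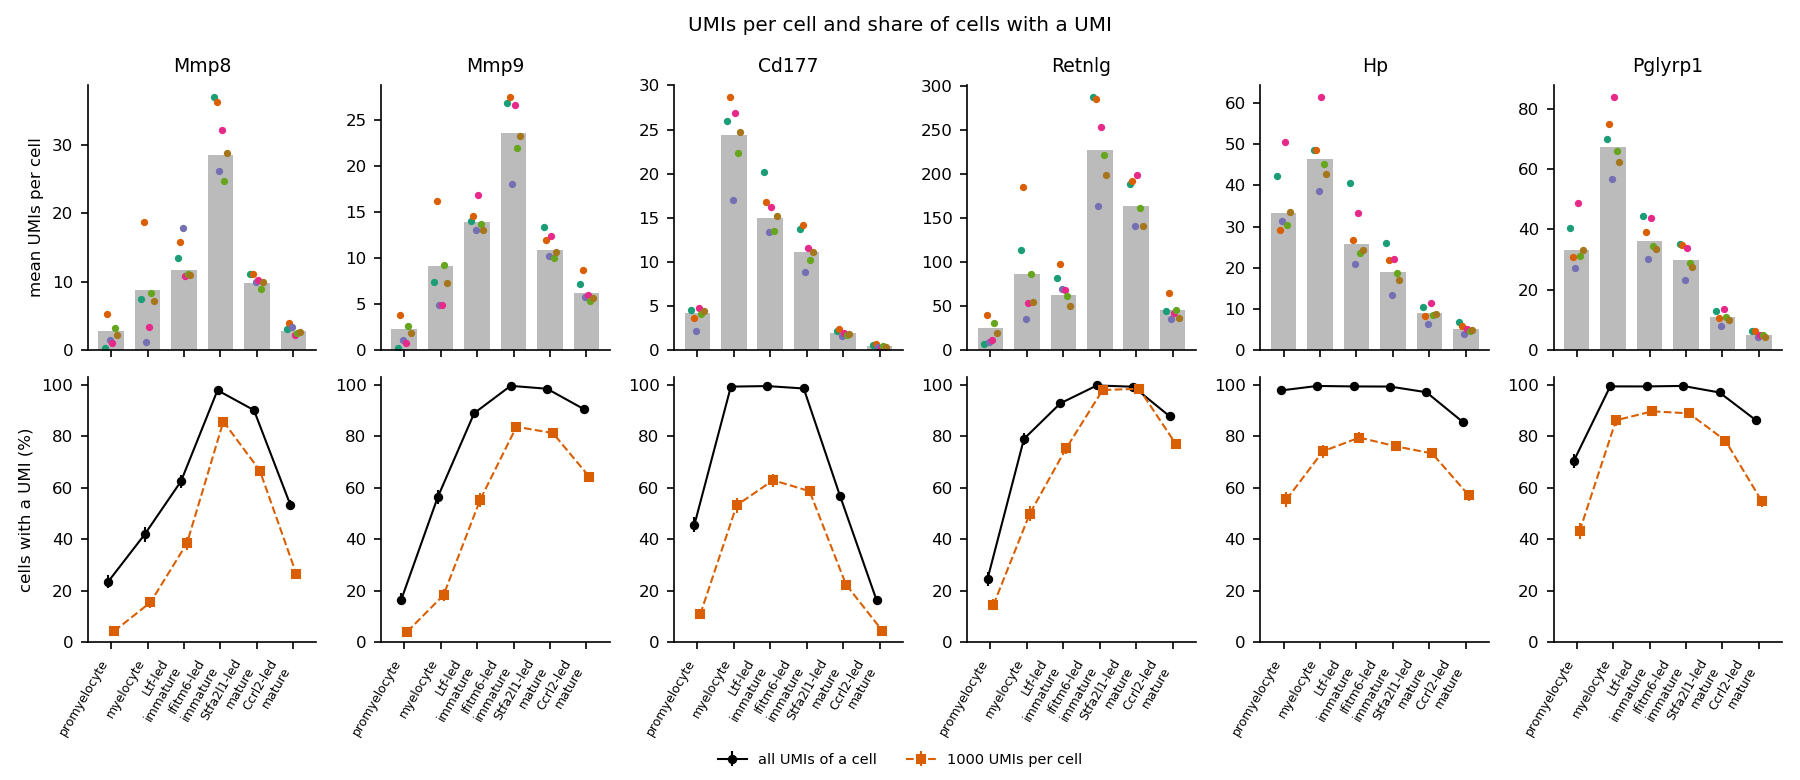
Upper row, mean UMIs per cell (bars from 0, pooled; points are the 6 libraries); lower row, percent of cells with a UMI, from all UMIs (circles) and after thinning to 1000 UMIs per cell (squares), with exact binomial 95% intervals that cover counting error only. Hp was detected in 97.7% of promyelocyte-like cells and Mmp9 in 16.6%, and the thinned shares kept the rise and fall along the clusters.

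The first 2 clusters were not uniform for the late genes. In promyelocyte-like cells the median count of Retnlg was 0, its mean was 24.4 UMIs per cell, and 90.4% of its UMIs lay in the 10% of cells with the most. Mmp8 and Mmp9 were as uneven, with 90.6% and 91.6% of their UMIs in such cells, whereas for Hp this share was 24.3%. These UMIs moved with those of late neutrophil genes. Of the 1064 cells, 283 had no UMI of Cxcr2, Il1b, Il1r2 or Ccrl2, a set chosen after the data were seen, at a median depth of 34240 UMIs against 34166 in the rest.

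In those 283 cells Mmp9 was at 0.413 CPM against 85.3 CPM in the rest, Retnlg at 7.33 against 935 CPM and Mmp8 at 8.68 against 102.8 CPM. Cd177 was at 19.9 against 155 CPM. Hp and Pglyrp1 differed less, with 616 against 1063 CPM and 339.8 against 1159 CPM, and Hp was still detected in 96.5% of these cells. Pglyrp1 had a UMI in 50.5% of them, Mmp9 in 1.41% and Retnlg in 2.47%. The 4 genes that picked these cells were highest in the mature clusters, where Retnlg was also above its level here. Low Retnlg, Mmp8 and Mmp9 thus follow in part from the choice. No order of the genes is read from these cells. Across libraries Mmp8 in the promyelocyte-like cluster ran from 6.86 to 129.7 CPM, and the sum of the 4 late genes from 155 to 333 CPM. Whether other cells in the same droplets or later precursors brought these UMIs was not tested.

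In the myelocyte-like cluster the 10% of cells with the most held 60.3% of Mmp8, 49.1% of Mmp9 and 53.2% of Retnlg UMIs. For Hp this share was 22.2%. Only 70 of the 1208 cells had no UMI of the 4 late genes. In them Cd177 stood at 845 CPM, Hp at 1501 CPM and Pglyrp1 at 2289 CPM, close to the whole cluster, while Mmp8 was at 9.12 CPM, Mmp9 at 57.6 CPM and Retnlg at 491 CPM. Their median depth was lower, 20449 UMIs against 29143 in the rest. Mmp8 was detected in 7.14% of these cells and in 41.9% of the whole cluster. The 4 genes used to pick the cells were highest in the mature clusters, as given above. Low Retnlg, Mmp8 and Mmp9 here thus follow in part from the choice of cells, and no order of the genes is read from them.

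The 6 genes were set beside fixed lists of the granule program. All 6 azurophil genes, such as Mpo and Elane, which encode enzymes of the first granules, were highest in the promyelocyte-like cluster, and all 6 were lower in the myelocyte-like cluster without overlap. Of the 6 secondary granule genes, Ltf, Ngp and Lcn2 were highest in the Ltf-led cluster, Camp and Chil3 in the myelocyte-like and Fcnb in the promyelocyte-like cluster. All 6 of them were lower in the Ifitm6-led than in the Ltf-led cluster, the step at which Mmp8, Mmp9 and Retnlg rose. Of the 6 genes of mobile granules and their membranes, Mmp25, Itgam, Itgb2 and Fpr2 were highest in the Ifitm6-led cluster, as Mmp8 was. Unlike for Mmp8, the library range of each of them there overlapped that of a neighboring cluster. Adam8 was highest in the Stfa2l1-led cluster at 932 CPM and Slc11a1 in the Ccrl2-led cluster at 304 CPM. Of the 6 late genes, 5 were highest in the Ccrl2-led cluster, among them Il1b at 10524 CPM, where all 6 of the genes followed here were lower than in the preceding cluster. Most of these lists served to name the clusters, so their place is a description.

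**Figure D4:**
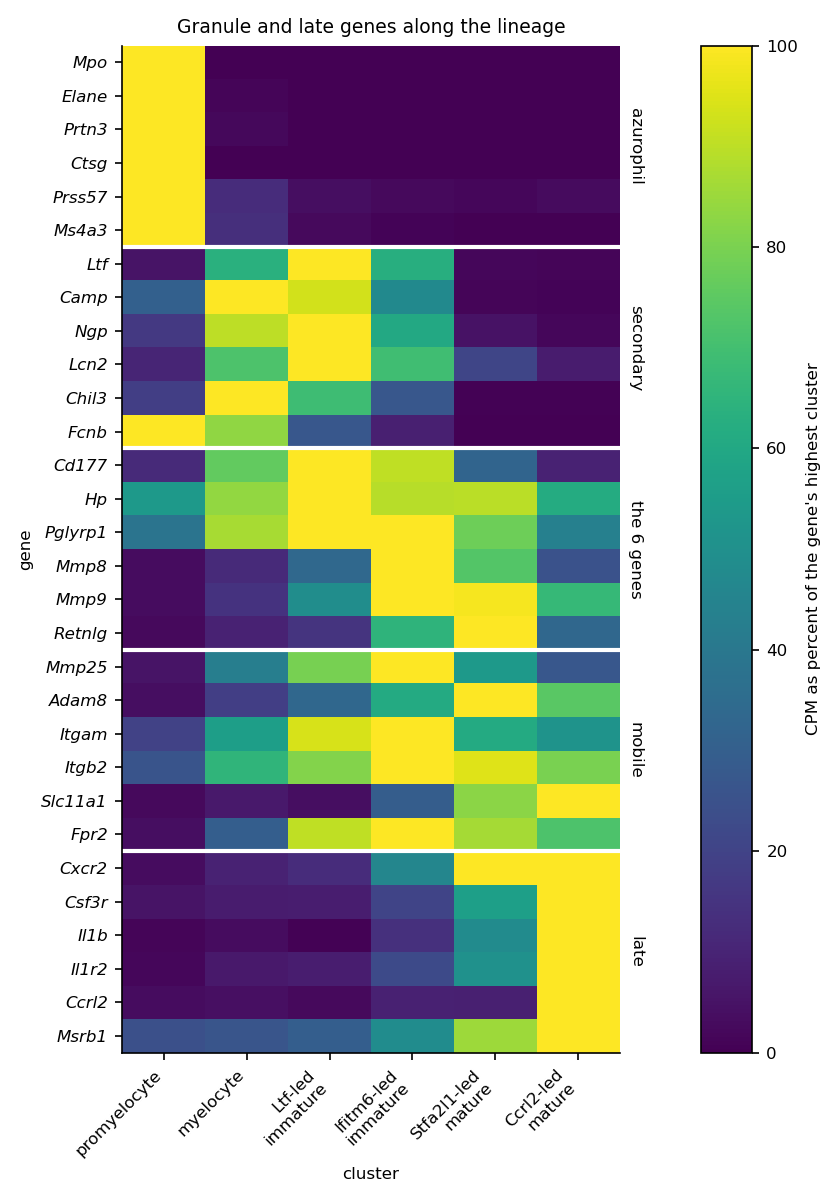
CPM of each gene (rows, grouped by list) in the 6 neutrophil-lineage clusters (columns), as percent of the gene's highest cluster (color). The order of the rows was chosen, so a shift down the rows is not a result. Azurophil genes were brightest in the promyelocyte-like and most late genes in the Ccrl2-led cluster. Cd177, Hp, Pglyrp1, Mmp8, Mmp9 and Retnlg were brightest in clusters between them.

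Inhibitors, partners and relatives of the 6 genes showed their own distribution. Timp2, an inhibitor of metalloproteinases, rose from 23.4 CPM in the promyelocyte-like to 342 CPM in the Ifitm6-led cluster. It rose further to 523 CPM in the Stfa2l1-led cluster, where Mmp9 held its level, and was 266 CPM in the Ccrl2-led cluster. Resident macrophage-like cells had 1126 CPM and fibroblast-like cells 1083 CPM of Timp2, more than any cluster of the lineage. Timp1 and Timp3 were at or below 1.92 CPM in the lineage and reached 399 and 506 CPM in fibroblast-like cells. Trem1, which encodes a receptor of the Pglyrp1 protein, was highest in the Stfa2l1-led cluster at 1474 CPM, later than Pglyrp1 itself. Cd163, the macrophage receptor for haptoglobin bound to hemoglobin, was at or below 1.26 CPM in the lineage and at 368 CPM in resident macrophage-like cells. Lcn2, whose protein binds that of Mmp9, was highest in the Ltf-led cluster at 17140 CPM. Of the relatives, Retn reached 53.6 CPM in the Ccrl2-led cluster and Retnla 422 CPM in resident macrophage-like cells, and Pglyrp3 and Pglyrp4 stayed at or below 2.33 CPM in the lineage.

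Over 32 clusters of at least 50 cells, the genes with the most similar levels were named among 7635 genes that reached 50 CPM in some cluster. The points share depth and libraries, so Pearson's r on log2(CPM + 1) is a description. Retnlg was the nearest gene to Mmp9 and Mmp9 to Retnlg (r = 0.987), followed for Retnlg by Cxcr2 (0.978) and G0s2 (0.971). Ifitm6 was nearest to Cd177 (0.977), Mcemp1 to Hp (0.980), S100a9 to Pglyrp1 (0.952) and A530064D06Rik to Mmp8 (0.957). Within the set, Hp and Mmp9 were the least alike pair, at 0.775. With 10 added in place of 1, 9 of the 18 nearest genes stayed among the first 3.

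After thinning, a mean of 1.32 of the 6 genes had a UMI in a promyelocyte-like cell, 2.97 in a myelocyte-like, 4.01 in a Ltf-led, 4.91 in an Ifitm6-led, 4.20 in a Stfa2l1-led and 2.85 in a Ccrl2-led cell. Mmp8 and Mmp9 occurred together in 74.6% of Ifitm6-led cells, where the product of their single shares was 71.7%. In the Ltf-led cluster they met in 29.2% of cells against a product of 21.2%, a ratio of 1.37 (1.21 to 1.69 in the libraries). In the Stfa2l1-led cluster Mmp8 and Cd177 met in 17.8% of cells against 14.96%, a ratio of 1.19 (1.12 to 1.25). Each of these pairs had the highest ratio of its cluster, and other pairs lay closer to 1. Hp and Pglyrp1 in the Ltf-led cluster gave 1.005 (0.992 to 1.03 in the libraries). A ratio above 1 within a cluster shows that the cells were not alike in both genes.

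Outside the lineage, the 6 genes were read in cells without any UMI of Ltf, Camp and Ngp, because many macrophage-like and monocyte-like cells held neutrophil transcripts. This filter was chosen after the data were seen. In the Stfa2l1-led and Ccrl2-led clusters Ltf was at 203 and 193, Camp at 521 and 332 and Ngp at 2071 and 818 CPM. Retnlg was at 28786 and 9597 CPM there, so RNA of mature neutrophil-like cells can pass the filter. Hp was then high in monocyte-like cells, of which there were 5 clusters. In the cluster led by Vcan and Nrg1, 1557 of 1615 cells passed, and Hp stood at 1009 CPM (871 to 1302 in the libraries), a level like that of promyelocyte-like cells, with a UMI in 98.4% of cells and in 59.9% after thinning.

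In the same cells Mmp8 was at 132 CPM and Cd177 at 78.1 CPM, with UMIs in 68.9% and 53.0% of cells, and Mmp9 was at 6.02 CPM (1.69 to 11.2 in the libraries). Retnlg was at 47.8 CPM in the total, but ran from 2.10 to 131 CPM with a median of 6.00, so a ratio to it would rest on few libraries. Hp lay above Retnlg without overlap of the library ranges, whereas the range of Mmp8, 100.4 to 162 CPM, overlapped that of Retnlg. A second monocyte-like cluster, led by Arhgef37 and Hspa1a, gave 857 CPM of Hp, 121 of Mmp8, 74.0 of Cd177 and 8.14 of Mmp9, and one led by Ifit2 and Cxcl10 gave 663 CPM of Hp, 83.7 of Mmp8 and 31.8 of Mmp9. The other two monocyte-like clusters held more Retnlg than Hp. In the one led by Vcan, Plcb1 and Arhgef37, where 145 of 464 cells passed, Retnlg was at 4054 CPM, Hp at 994, Mmp8 at 369 and Mmp9 at 348 CPM. In the one led by Adgre4, Pparg and Ace, Retnlg was at 1176 CPM, Hp at 409, Mmp8 at 63.3 and Cd177 at 24.2 CPM. Proliferating cells led by Hist1h1b and Hist1h2ap had 669 CPM of Hp and 86.8 CPM of Mmp8. Those led by Hist1h2ae and Myl4 had only 9.01 CPM of Hp and 4.68 CPM of Mmp8.

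Pglyrp1 had another distribution. Monocyte-like cells led by Adgre4, Pparg and Ace, genes of the patrolling type, had 629.9 CPM of Pglyrp1 in the 145 of 222 cells that passed, with a UMI in 82.1% of them, and the Vcan, Plcb1 and Arhgef37-led cells had 355 CPM, both beside the Retnlg given above. Basophil-like cells had 313 CPM (183 to 520.1 in the libraries), with a UMI in 73.3% of only 30 cells, beside 1099 CPM of Retnlg. NK cell-like cells had 145 CPM (98.6 to 193 in the libraries) with a UMI in 64.5% of 332 cells. T cell-like cells led by Xcl1, Trbc2 and Ccl5 had 75.7 CPM (60.4 to 87.6) with a UMI in 43.9% of 594 cells, while their Retnlg was at 1.20 CPM and Mmp8 at 0.602 CPM. T cell-like cells led by Ctla4 and Icos had 61.8 CPM (43.2 to 83.9) with a UMI in 27.9% of 588 cells, beside 201 CPM of Retnlg. In B cell-like cells Pglyrp1 was at 5.53 CPM, with a UMI in 3.07% of cells. After thinning, the shares with Pglyrp1 were 11.2% in NK cell-like, 7.08% in Xcl1-led T cell-like and 0.762% in B cell-like cells.

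Macrophage-like clusters differed only in part among themselves. In the one led by Lyve1, Mmp8 was 0.0671 times and Mmp9 0.120 times Retnlg, and in mature neutrophil-like clusters Mmp8 was 0.0600 and 0.0622 times and Mmp9 0.0668 and 0.136 times Retnlg. In the cluster led by Ccl8 and Apoe these ratios were 0.0672 and 0.116, close to the Lyve1-led one. In the cluster led by Arg1 and Mmp19, where 2069 of 2157 cells passed, they were 0.137 and 0.223. Hp stood at 139 CPM in this Arg1-led cluster, with a UMI in 41.1% of cells. Immature neutrophil-like clusters had ratios of 0.187 and 0.223 (Ltf-led) and of 0.126 and 0.104 (Ifitm6-led). In the 352 Lyve1-led cells that did hold a UMI of Ltf, Camp or Ngp, Retnlg was at 8206 CPM, against 829 CPM in the rest. For macrophage-like cells led by Ccl8 and Apoe, 1098 of 1901 held such UMIs, at a median depth of 25393 UMIs for the whole cluster. Whether the neutrophil transcripts in these cells came from free RNA, doublets or cells taken up was not tested.

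**Figure D5:**
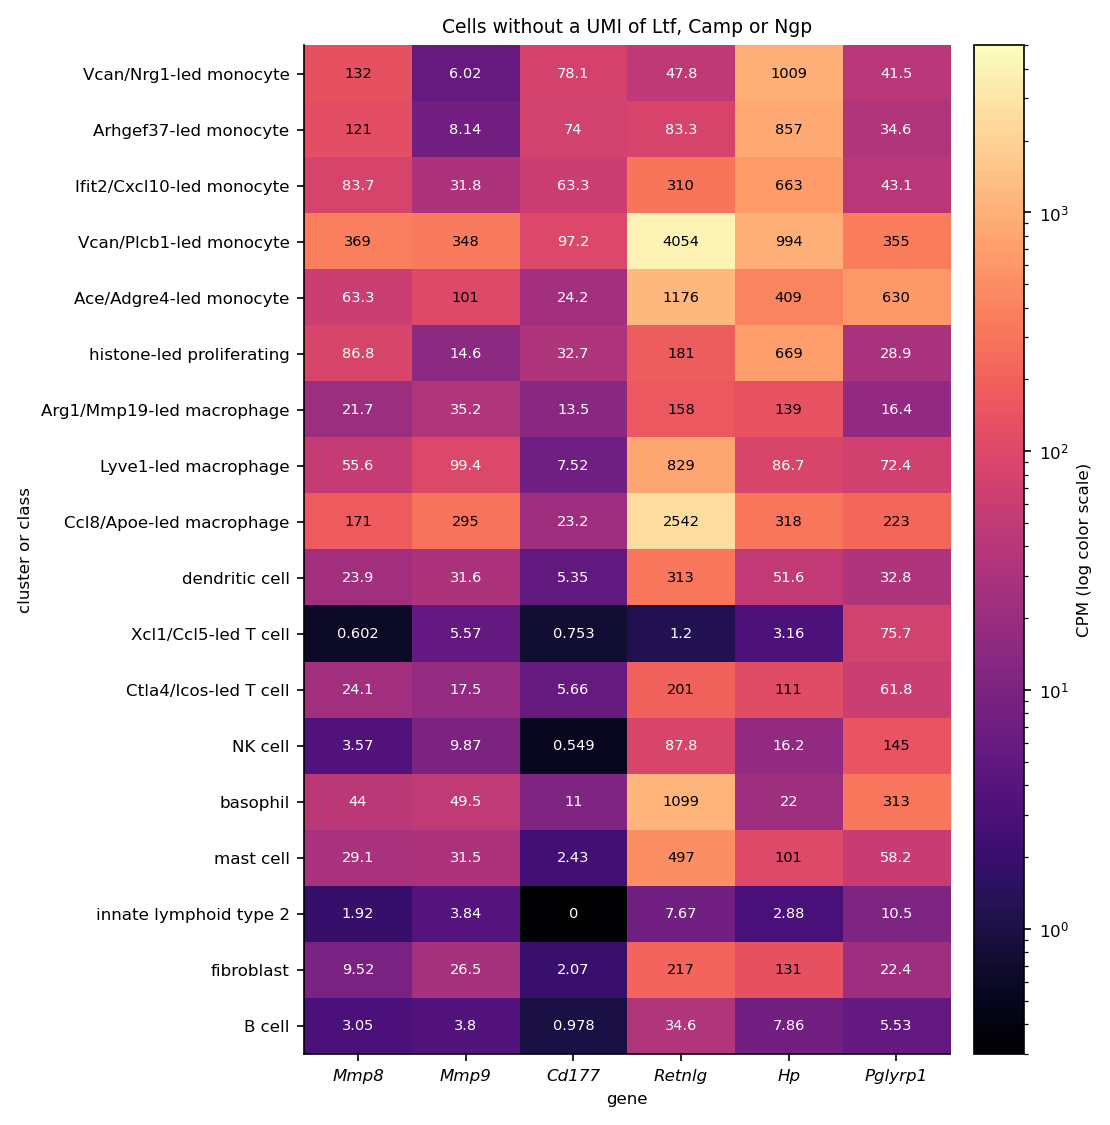
Level of each gene (columns) in cells without a UMI of Ltf, Camp or Ngp, by cluster or class (rows); numbers are CPM and color is on a log scale. RNA of mature neutrophil-like cells can pass this filter. Hp was at 1009 CPM in the Vcan/Nrg1-led and 409 CPM in the Ace/Adgre4-led monocyte-like cluster, and Pglyrp1 ran from 5.53 CPM in B cell-like cells over 75.7 in Xcl1-led T cell-like, 145 in NK cell-like and 313 in basophil-like to 629.9 CPM in Ace/Adgre4-led monocyte-like cells.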

How the data were processed

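The authors made 3′ libraries (Chromium kit 3.1). They used Cell Ranger 7.0.0 with mm10 for alignment and counting, SoupX 1.6.2 against ambient RNA, DoubletFinder 2.0.3 against doublets, and a Seurat 4.3.0 filter of 200 to 7000 genes and at most 10% mitochondrial UMIs per cell. They deposited one pooled table of whole UMI counts, not scaled for depth. Reads that SoupX removed can lower true counts of abundant neutrophil genes, and reads it left can raise them in other cells. No further doublet removal was done here.

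Each cell was scaled to a total of 10000, followed by log1p. Without the 6 genes, 2000 variable genes, 30 principal components, 15 neighbors and Leiden clustering (resolution 1.0, seed 0; scanpy 1.11.5, igraph 0.11.9) gave 33 clusters. Of these, 30 were named from fixed markers, and 1834 cells stayed unnamed. A name needed at least 3 markers detected in 25% of the cells and 1 among the 30 leading genes. CPM is the summed UMIs of a gene per 1000000 UMIs. Intervals of shares are exact (Clopper-Pearson, 95%). The comparison of clusters was run on simulated libraries with large known folds and independent noise. That run does not cover small differences, clusters of few cells or shifts shared by many genes. Alternatives were other resolutions, the 6 genes kept, thinning, terciles and leaving out each library. The restrictions to cells without late or without granule UMIs were chosen after seeing the data.

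The named genes are the 6 members, fixed lists of azurophil, secondary, mobile granule and late genes, inhibitors, partners and relatives, and the 3 most similar genes per member. Leading genes of clusters are also named. Members and lists were chosen with earlier results of these data known.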

Additional observations from a re-analysis of the deposited data

How the results depend on the processing

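The log2 ratio of mature to immature neutrophil-like cells kept its direction for Mmp8, Cd177, Retnlg, Hp and Pglyrp1 under all alternatives, but its size moved. Mmp9 fell below 0 in 3 of them, though for the terciles the counting interval, -0.031 to 0.015, included 0. With resolution 0.5 the ratios were -0.95 (Mmp8), -0.079 (Mmp9), -2.61 (Cd177), 0.11 (Retnlg), -0.33 (Hp) and -0.83 (Pglyrp1). With resolution 2.0 they were -0.19, 0.23, -1.68, 0.99, -0.21 and -0.52 in the same order. With the 6 genes kept in the clustering they were -0.10, 0.25, -1.60, 1.03, -0.22 and -0.51. Of the 6 genes, 0 were among the variable genes even then. This setting could thus act only through the totals used for scaling and the choice of other variable genes. It does not show how far the clusters rest on the 6 genes. After thinning to 1000 UMIs they were -0.96, -0.19, -2.33, 0.16, -0.31 and -0.78. Between terciles of secondary granule share they were -1.26, -0.0079, -3.74, 0.35, -0.48 and -1.07. Leaving out 1 library gave -0.49 to -0.40 for Mmp8, 0.089 to 0.14 for Mmp9, -2.04 to -1.95 for Cd177, 0.66 to 0.74 for Retnlg, -0.27 to -0.22 for Hp and -0.65 to -0.60 for Pglyrp1. The other resolutions, the clustering with the 6 genes kept and the terciles redraw the line between the classes. Thinning and leaving out a library keep that line and change how much each cell or library counts. The cause of each shift was not tested.

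No paired analysis was possible because the barcode libraries carry no replicate number of a labelled sample. CPM depends on the other transcripts of a cell, and mature cells were shallow, so a gene missed in such a cell need not be absent. At an equal 1000 UMIs per cell the share with Cd177 still fell, from 62.9% of Ltf-led to 4.49% of Ccrl2-led cells. The myelocyte-like cluster held 13 cells in its smallest library, so its lowest values are the least precise. Intervals cover counting error only.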

Other observations

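The 3 unnamed clusters differed widely in the 6 genes. A cluster of 629 cells led by Hbb-bs and Hba-a1, with Angpt1 and Meis1 among its leading genes, stayed unnamed because its markers pointed to more than one class. It had 28.7 CPM of Hp and 17.3 CPM of Pglyrp1, with UMIs in 13.99% and 8.27% of cells, and 5.34 CPM of Mmp8. An unnamed cluster of 851 cells led by Bank1 and Ighd had 35.1 CPM of Pglyrp1 in 13.6% of cells and 10.7 CPM of Hp. A further unnamed cluster, 354 cells led by Jchain and Igha together with the muscle gene Acta1, held 6341 CPM of Retnlg and 641 CPM of Hp.

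The share of the neutrophil lineage differed between libraries of unknown treatment, from 11.7% of cells in library 3 to 49.0% in library 5. The level of Mmp8 in its highest cluster varied 1.19-fold between the same libraries, that of Retnlg 1.18-fold and that of Hp 1.33-fold.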
